A study of Mus musculus and Homo sapiens with 14 samples.

Results

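Loss of the kinase SIK3 was compared directly with loss of the transcription factor MEF2C in mouse acute myeloid leukemia cells. The comparison rests on 4 of the series' 14 RNA-seq libraries: 2 of RN2 Cas9 cells infected with a guide RNA against Sik3 (sgSik3, guides e1 and e3) and 2 infected with a guide against Mef2c (sgMef2c, guides 1 and 2). RN2 is a mouse leukemia line driven by the MLL-AF9 fusion and mutant Nras, and the derivative used here carries Cas9. 2 further libraries of the same cells, infected with a guide that cuts the Rosa26 locus (sgRosa26, libraries 1 and 2), served as the cutting control of both knockouts. All 6 cultures thus carried the 2 leukemia drivers, Cas9 and a lentiviral guide, and were collected at day 2 after infection. Each library is a bulk culture, not a clone. Whether uninfected cells were removed is not given in the sources used here, so the cells of a knockout culture may still hold intact alleles. The 2 libraries of a knockout carry different guides, and nothing in the labels says whether the 2 sgRosa26 libraries came from separate infections, so p-values measure the spread between these libraries.

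SIK3 is a salt-inducible kinase that is switched on by the kinase LKB1 (Stk11). It phosphorylates class IIa histone deacetylases (HDAC4, 5, 7 and 9) and the CREB coactivators of the CRTC family, and both kinds of substrate are then held in the cytoplasm. Without SIK activity, class IIa HDACs can enter the nucleus and repress MEF2 factors, and CRTCs can enter it and activate CREB at cyclic AMP response elements (CRE). In myeloid leukemia with an MLL fusion, MEF2C is known as a factor that supports growth of the leukemia cells. The direct comparison therefore asks which genes answer to the kinase and not to the factor, and the reverse.

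Both pathways have recognised DNA motifs, and the starts of a few genes that differed between the knockouts are shown here because they hold them in RefSeq's promoter sequences (build GRCm38.p6). In each line the motif is in capitals and the sequence runs 5′ to 3′ along the gene. The first 3 genes hold the CRE half-site TGACG, here on the opposite strand as CGTCA, and the last pair holds the MEF2 consensus. The Arl4c line also holds 1 half-site, read on the other strand (CGTCA) and in capitals too.
Nr4a1, chr15:101266606-101266826, plus strand, 240 to 20 bases upstream of the start: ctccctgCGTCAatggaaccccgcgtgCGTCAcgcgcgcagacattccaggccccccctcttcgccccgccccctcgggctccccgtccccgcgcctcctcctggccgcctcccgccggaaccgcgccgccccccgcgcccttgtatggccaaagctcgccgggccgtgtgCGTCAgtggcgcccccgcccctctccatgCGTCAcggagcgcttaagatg
Gnas, chr2:174327679-174327729, plus strand, 70 to 20 bases upstream of one of its starts: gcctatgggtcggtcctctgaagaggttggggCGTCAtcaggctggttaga
Pde4b, chr4:102421495-102421545, plus strand, 60 to 10 bases upstream: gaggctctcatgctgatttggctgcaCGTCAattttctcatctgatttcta
Arl4c, chr1:88702381-88702421, minus strand, 230 to 190 bases upstream: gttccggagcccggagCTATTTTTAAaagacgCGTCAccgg
Cdkn1b, chr6:134920151-134920191, plus strand, 250 to 210 bases upstream: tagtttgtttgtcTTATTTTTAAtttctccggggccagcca

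In the 250 bases upstream of the start, searched on both strands, the half-site was present in 31.59% of the 8528 tested genes with a RefSeq promoter, in 30.79% of the 367 that were higher in sgMef2c than in sgSik3, and in 25.88% of the 452 that were lower. Over all genes tested, 4.18% passed as higher and 5.37% as lower in the direct test described below. The full CRE TGACGTCA, which contains the half-site on both strands, was present in 3.2%, 3.54% and 2.21% of the same genes. The MEF2 consensus was present in 1.75%, 1.09% and 2.65%. Over all 32851 promoters of the table the half-site stood in 17.77%, the full CRE in 1.55% and the MEF2 consensus in 2.92%. The MEF2 share among the lower genes rests on 12 promoters. A match describes letters in a window and not a bound site. Nr4a1, which encodes a nuclear receptor and is a textbook CREB target, was lower in sgSik3, at 211 and 176 normalized reads, than in sgMef2c, at 309 and 321, and in sgRosa26, at 274 and 315. Its direct difference was 0.70 on the log2 scale (sgMef2c minus sgSik3, SE 0.12, adjusted p = 0.00752), and it missed the threshold without either sgSik3 library (adjusted p = 0.0675 without e1 and 0.118 without e3). Arl4c, a small GTPase of the ARF family, held 36.9 and 31.5 in sgMef2c, 84.95 and 93.2 in sgSik3 and 69.4 and 62.3 in sgRosa26, and missed the threshold without either sgSik3 library too (largest adjusted p = 0.0689).

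The libraries held 19065348 to 24275290 reads assigned to genes, and 10952 genes with a mean of at least 10 normalized reads were tested. A normalized read here is a read rescaled to the mean library size of the 6 libraries, so it compares a gene between libraries and not 1 gene with another. Genes that differed were found with edgeR's quasi-likelihood test on all 6 libraries, at a Benjamini-Hochberg adjusted p of 0.05 over all genes tested. The 2 sgSik3 libraries resembled each other most (chi-square per degree of freedom 1.71 over 11435 genes), ahead of sgRosa26 (4.2) and sgMef2c (8.64). Expression fitted myeloid leukemia cells: Ptprc, the pan-leukocyte gene CD45, held 10484 to 12374 normalized reads in the 6 libraries, Spi1 held 5604 to 7868, Kit held 3119 to 4511 and Cebpa held 3353 to 3676. Markers of other cell types were nearly absent: of 27 such genes found in the tables, 4 passed the filter (Nkg7, Pdgfrb, Pecam1 and Vwf) and 11 had no read in any of the 6 libraries, among them the T cell gene Cd3e and the B cell gene Ms4a1. Their summed level was 7802 and 7984 in sgRosa26, 8240 and 8329 in sgSik3 and 6965 and 6989 in sgMef2c, most of it from Pecam1, which myeloid cells also express (7216 and 7272 in sgSik3 and 6055 and 6095 in sgMef2c, direct log2 difference -0.25, adjusted p = 0.00346 and at most 0.0851 with 1 library left out). Of the 4 tested markers, 2 were lower in sgMef2c: Pecam1 and Pdgfrb, a receptor of fibroblasts and pericytes (701 and 744 in sgSik3, 564 and 559 in sgMef2c and 591 and 579 in sgRosa26, direct log2 difference -0.36, adjusted p = 0.00876, at most 0.131). Without either sgSik3 library 0 of the 4 passed. The part of other cells in the results below was not tested, and in bulk RNA fewer cells of a type and less RNA per cell cannot be told apart. Since the kit does not mark strand, reads of Gnas, Prss57, Csf1r and Prtn3 cannot be told apart from those of the antisense genes Nespas, Fstl3, Hmgxb3 and Plppr3 where their exons overlap. The sgRosa26 libraries differed in Cpa3, a mast cell protease, at 629 and 1584 normalized reads.

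The guides lowered the transcripts they target. Sik3 (chr9:46012820-46224194, GRCm38, 1 of 3 salt-inducible kinases) held 1252 and 1202 normalized reads in sgSik3, against 2068 and 2096 in sgMef2c and 1986 and 1922 in sgRosa26. Mef2c (chr13:83504034-83667080) held 3815 and 3923 in sgMef2c, against 7601 and 7633 in sgSik3 and 8181 and 8171 in sgRosa26. The targeted group stood apart from the other 4 libraries for either gene. The direct log2 differences were 0.76 for Sik3 (SE 0.04, 95% interval 0.66 to 0.86, adjusted p = 2.83e-05) and -0.98 for Mef2c (SE 0.04, -1.06 to -0.90, adjusted p = 2.28e-06). Cas9 cuts DNA, so transcript that remains says little about how much protein was left. With loss of MEF2C the log2 change of Sik3 against sgRosa26 was 0.09 (95% interval -0.0031 to 0.18, adjusted p = 0.118). Mef2c itself fell slightly with loss of SIK3, with a log2 change of -0.10 against sgRosa26 (adjusted p = 0.0359).

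Most relatives of the 2 targets did not pass the direct test. Mef2d, a second MEF2 factor of these cells, held 3379 and 3492 normalized reads in sgSik3 and 3617 and 3349 in sgMef2c, against 4845 and 4197 in sgRosa26, with a direct difference of 0.02 (95% interval -0.13 to 0.17). Hdac9, a class IIa deacetylase and known MEF2 target, held 143 and 134 in sgSik3, 137 and 143 in sgMef2c and 261 and 245 in sgRosa26. It fell with both knockouts, with log2 changes of -0.87 with sgSik3 and -0.86 with sgMef2c, and its direct difference was 0.01 (-0.25 to 0.27). Hdac4 was lower with loss of SIK3 alone, at 1295 and 1339 in sgSik3 against 1586 and 1573 in sgMef2c and 1482 and 1504 in sgRosa26 (direct adjusted p = 0.0075, largest 0.12 with 1 library left out). Sik1, the sister kinase whose gene is itself a CREB target, was higher with loss of MEF2C alone, at 241 and 300.5 in sgMef2c against 159.9 and 189.7 in sgSik3 and 180.2 and 193 in sgRosa26 (direct adjusted p = 0.0218, largest 0.197 with 1 library left out). Sik2 rose against sgRosa26 with both, by 0.48 and 0.30, and did not pass the direct test (adjusted p = 0.0597, 95% interval -0.31 to -0.07), with reads that an antisense neighbor, Ppp2r1b, could share. Of the 14 genes of the SIK, LKB1 and CRTC-CREB list, 2 passed, Sik3 and Sik1, both higher in sgMef2c. Of the 7 tested MEF2 and class IIa HDAC genes 1 was higher (Hdac4) and 1 lower (Mef2c). Over all genes tested, 4.18% were higher in sgMef2c and 5.37% lower.

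Across all genes the knockouts were close, and where they parted the differences were mostly small. Of the 10952 genes, 1046 passed the direct test (9.55%): 458 were higher in sgMef2c (4.18%) and 588 were lower (5.37%). The median size of a called difference was 0.26 on the log2 scale, and 48 genes differed by more than 2-fold, 16 higher and 32 lower in sgMef2c. For 9225 genes (84.23%) the 95% interval of the direct difference lay wholly within a 1.5-fold change. Against sgRosa26, sgSik3 raised 2605 genes (23.8%) and lowered 2475 (22.6%), and sgMef2c raised 2133 (19.5%) and lowered 1908 (17.4%). These 2 comparisons share their controls, so their overlap is not read as likeness. Of the 3306 genes past both in the same direction, 2938 (88.87%) had a direct interval within 1.5-fold. They were chosen for changes of the same sign, and their share was near the 84.23% of all genes. Such an interval also held for 794 of the 1046 genes past the direct test, so it bounds a difference and does not show that there was none.

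The direct calls depend strongly on the sgSik3 libraries being present in a pair. Without guide e1 51 genes passed, and without e3 54. The spread within groups then came only from sgRosa26 and sgMef2c, whose libraries differed more from each other. Without sgMef2c 1 or 2, 705 and 922 genes passed, without either sgRosa26 library 1162, and DESeq2 on the 6 libraries called 592. A set of 44 genes passed with all 6 libraries and in each of the 6 fits with 1 library left out, and DESeq2 called all 44. They carry most of the account below. A gene outside this set is given with "largest", its largest adjusted p over those 6 fits. Of the 44, 9 were higher and 35 lower in sgMef2c than in sgSik3, with log2 differences between 0.36 and 2.03 in size.

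**Figure D1:**
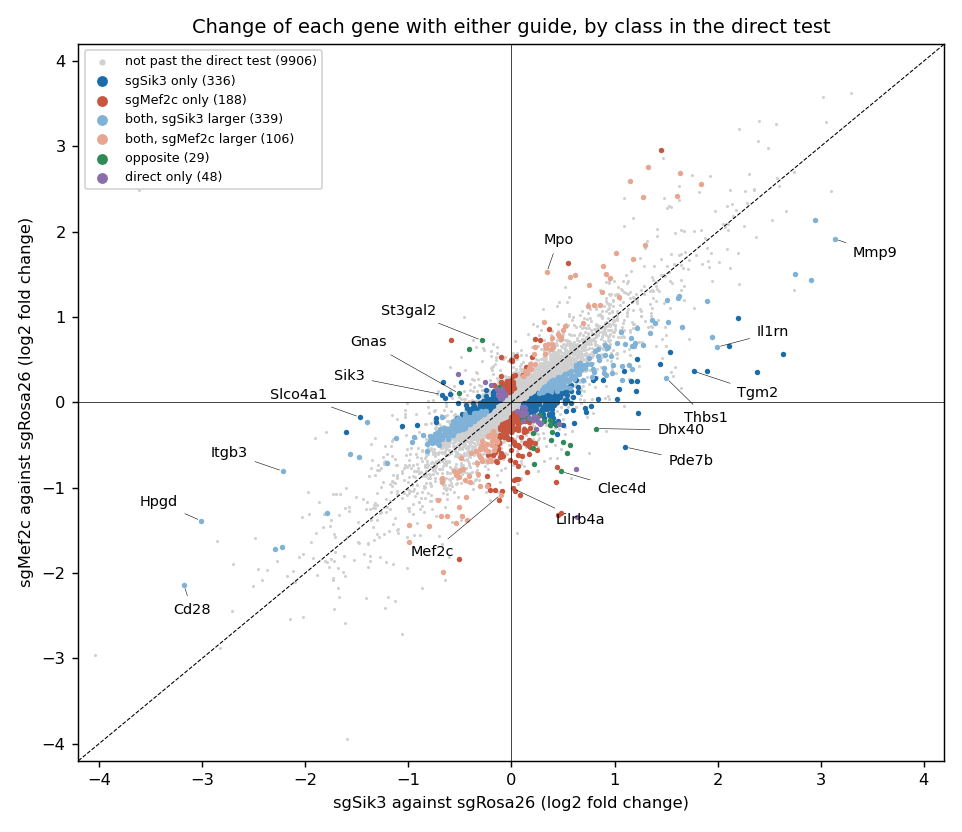
Log2 fold change of each tested gene with sgSik3 (horizontal axis) and with sgMef2c (vertical axis), both against sgRosa26, which both axes share; colours give the class of the 1046 genes past the direct test and grey points are the other 9906. The dashed line marks equal change: genes below it, such as Tgm2 and Dhx40, are lower in sgMef2c than in sgSik3, and genes above it, such as Slco4a1 and Mpo, are higher.

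Genes that answered to loss of the kinase and not of the factor made up the largest part of the differences that are not a matter of degree. By the test against sgRosa26, 336 of the 1046 genes passed with sgSik3 only, 193 up and 143 down, and for 318 of them the 95% interval of the sgMef2c change lay within 1.5-fold. The class held 175 genes without sgMef2c 1 and 382 without sgMef2c 2, and 20 and 21 without sgSik3 e1 and e3. Of the 44 genes above, 12 were of this kind. Among the genes that rose with sgSik3 only were Tgm2, Il1b, Pde7b, Clec5a and Prkar2b. Slco4a1 and Sik3 itself fell. A missed test with sgMef2c does not show that a gene was unchanged there. For Tgm2, Il1b and Pde7b the 95% interval of the sgMef2c change reached beyond 1.5-fold.

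Tgm2 (chr2:158116402-158146436), which encodes the protein-crosslinking enzyme tissue transglutaminase, held 299.8 and 292 normalized reads in sgSik3, 116 and 107 in sgMef2c and 79.98 and 93.9 in sgRosa26. Every sgSik3 library lay well above the other 4. The direct log2 difference was -1.40 (SE 0.11, adjusted p = 0.000237), and the sgMef2c change against sgRosa26 was 0.36 (adjusted p = 0.063). Its exons overlap those of Rprd1b on the other strand, and the library kit does not mark strand. Il1b, the cytokine interleukin-1 beta, was read rarely but followed the same pattern, with 63.96 and 65.1 in sgSik3, 14.04 and 17.9 in sgMef2c and 12.5 and 12.2 in sgRosa26 (direct log2 difference -2.03, SE 0.23, adjusted p = 0.00164).

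Several of these genes act on cyclic AMP, the second messenger that controls SIKs through protein kinase A. Pde7b, a cyclic AMP phosphodiesterase, held 144 and 164 in sgSik3, 50.02 and 49.4 in sgMef2c and 60.7 and 82.7 in sgRosa26, with a direct difference of -1.63 (SE 0.18, adjusted p = 0.00123). Prkar2b, a regulatory subunit of protein kinase A, held 2578 and 2573 in sgSik3, 1864 and 1747 in sgMef2c and 1978 and 1947 in sgRosa26, and Pde1b, a phosphodiesterase that answers to calcium, held 2618 and 3102 in sgSik3, 1985 and 2072 in sgMef2c and 1972 and 2016 in sgRosa26. Their direct differences were -0.51 (adjusted p = 0.000286) and -0.49 (adjusted p = 0.00379). In all 3 genes the sgSik3 libraries were the high ones, and sgMef2c changed none past the test against sgRosa26. Pde7b and Prkar2b missed that test narrowly, with changes opposite in sign to those with sgSik3. The sgMef2c change was -0.52 for Pde7b (interval -0.97 to -0.07, adjusted p = 0.0663). For Prkar2b it was -0.12 (interval -0.22 to -0.02, adjusted p = 0.058), and for Pde1b 0.02 (adjusted p = 0.82). Pde7b and Prkar2b are thus not shown to be unchanged by loss of MEF2C. Clec5a, a myeloid lectin receptor, rose with sgSik3 too, to 5491 and 5464 in sgSik3 against 3452 and 3668 in sgMef2c and 3709 and 3894 in sgRosa26 (direct difference -0.62, SE 0.04, adjusted p = 7e-05). The receptor gene Notch2 (3759.9 and 3814 in sgSik3, 2919.9 and 2998 in sgMef2c and 2844 and 2941 in sgRosa26), the immune adaptor gene Fyb (1156 and 1226 in sgSik3, 699 and 787 in sgMef2c and 811 and 765 in sgRosa26), the GTPase-activating protein gene Arhgap31 (3863 and 3839 in sgSik3 and 2843 and 2776 in sgMef2c) and the sorting nexin gene Snx18 (2704 and 2626 in sgSik3 and 2038 and 2078 in sgMef2c) complete the rising genes of the set of 44 in this class.

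Slco4a1 (chr2:180456245-180474867), an organic anion transporter, was the other gene of the set, beside Sik3, that fell with loss of the kinase alone. It held 553 and 659 normalized reads in sgSik3, 1549 and 1409.9 in sgMef2c and 1629 and 1716 in sgRosa26, so sgSik3 stood far below the other groups, which nearly met. The direct log2 difference was 1.29 (SE 0.08, 95% interval 1.11 to 1.47, adjusted p = 4.03e-05), and sgMef2c changed it by -0.17 against sgRosa26 (95% interval -0.33 to -0.02). Col4a1, a basement membrane collagen, was lower with sgSik3 too, at 34.98 and 48.3 in sgSik3 against 105 and 91.4 in sgMef2c (direct difference 1.26, adjusted p = 0.00671, largest 0.117). Other sgSik3-only genes outside the 44 rose less firmly. Fcnb, a ficolin of neutrophil granules, held 242 and 209.9 in sgSik3 and 115 and 98.8 in sgMef2c (adjusted p = 0.00356, largest 0.0939). Cdkn1b, the cell cycle inhibitor p27, held 942 and 935 in sgSik3 and 726 and 748 in sgMef2c, against 615 and 719.7 in sgRosa26 (adjusted p = 0.0185, largest 0.164). Csf2rb, the shared beta chain of the receptors for GM-CSF and interleukin-3, held 7975 and 8059.6 in sgSik3 and 6554 and 6834 in sgMef2c (adjusted p = 0.00794, largest 0.127), and its near-identical copy Csf2rb2 held 2077 and 1944 in sgSik3 and 1501 and 1549 in sgMef2c (adjusted p = 0.00214, largest 0.0675), so reads may have been split between them.

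CREB target genes differed in both directions in the direct comparison. Of the 18 tested, 3 were higher in sgMef2c (Nr4a1, Sik1 and Cited2) and 2 were lower (Pde4b and Dusp1), with a median of -0.09, beside 4.18% and 5.37% of all genes. The counts became 0 and 0 without sgSik3 e1, 0 and 1 without e3, 3 and 1 without sgMef2c 1, and 2 and 1 without sgMef2c 2. Pde4b, a cyclic AMP phosphodiesterase that CREB induces, held 693 and 641 normalized reads in sgSik3, 424 and 434 in sgMef2c and 336 and 341 in sgRosa26 (direct difference -0.64, SE 0.07, adjusted p = 0.00135, largest 0.0526). Dusp1, a phosphatase of the stress kinases, held 137 and 139 in sgSik3, 88.6 and 102 in sgMef2c and 65.5 and 74.5 in sgRosa26 (adjusted p = 0.04, largest 0.223), and Cited2, a coregulator that binds CBP and p300, held 2638 and 2591 in sgSik3, 3249 and 3780.1 in sgMef2c and 2179 and 2289.7 in sgRosa26 (adjusted p = 0.00484, largest 0.111). Against sgRosa26 6 of the 18 rose and 5 fell with sgSik3, beside 23.8% and 22.6% of all genes, and 9 rose and 5 fell with sgMef2c, beside 19.5% and 17.4%. Genes with a rise, a fall and no call thus stood side by side in this list with either knockout.

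The reverse class, genes that answered to loss of the factor and not of the kinase, was smaller and leaned the other way. It held 188 genes, 47 up and 141 down with sgMef2c, and for 179 of them the sgSik3 change had a 95% interval within 1.5-fold. Of the 44 genes 8 belonged here: Lilrb4a, Lilr4b, Cd34, Capn2, Nabp1, Stk17b and Btg1 fell and Prtn3 rose. The class held 71 genes without sgMef2c 2 and 141 without sgMef2c 1, and 11 and 13 without sgSik3 e1 and e3.

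Lilrb4a (chr10:51490956-51496611) and its neighbor Lilr4b are immunoglobulin-like receptors of myeloid cells. Lilrb4a held 1063 and 1039 normalized reads in sgMef2c, 2042 and 2218 in sgSik3 and 2041 and 2183 in sgRosa26. Lilr4b held 369 and 378 in sgMef2c, 697 and 834 in sgSik3 and 773 and 884 in sgRosa26. In either gene sgMef2c stood at about the same low level with both guides while the sgSik3 and sgRosa26 libraries overlapped, and the sgSik3 change of Lilrb4a against sgRosa26 was 0.01 (95% interval -0.11 to 0.13). The direct log2 differences were -1.02 (SE 0.06, adjusted p = 2.57e-05) and -1.03 (SE 0.10, adjusted p = 0.000669). The genes are close paralogs, so reads of 1 may be counted in the other and the pair should be taken as 1 result.

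Cd34, which encodes a surface sialomucin used to mark hematopoietic stem and progenitor cells, held 10679 and 9877 in sgMef2c, 14897 and 14684 in sgSik3 and 13918 and 15043 in sgRosa26. Loss of SIK3 left it at 0.03 against sgRosa26 (95% interval -0.08 to 0.14), and its direct difference was -0.52 (SE 0.05, adjusted p = 0.000539). Capn2, a calcium-activated protease, held 1224 and 1229 in sgMef2c against 1719 and 1759 in sgSik3, and Btg1, an antiproliferative gene, held 942 and 926 in sgMef2c against 1330.2 and 1257 in sgSik3. The single-strand DNA binding gene Nabp1 held 646 and 628 in sgMef2c against 897 and 898 in sgSik3, and the kinase gene Stk17b held 1392 and 1493 in sgMef2c against 1983 and 2069 in sgSik3. These 4 genes had direct differences of -0.50 (Capn2), -0.47 (Btg1), -0.49 (Nabp1) and -0.49 (Stk17b), with adjusted p of 0.000446, 0.00112, 0.00112 and 0.00089. Prtn3 (chr10:79874476-79883174), the serine protease proteinase 3 of neutrophil primary granules, was the gene of the 44 that rose with sgMef2c alone, at 30775 and 30257 in sgMef2c against 22365 and 21523 in sgSik3 and 21005 and 22619 in sgRosa26 (direct difference 0.48, SE 0.04, adjusted p = 0.000446). Genes with less firm calls in this class included surface and signaling molecules of monocytes and progenitors. Csf1r, the M-CSF receptor, held 914 and 813 in sgMef2c and 1255 and 1193 in sgSik3 (adjusted p = 0.0027, largest 0.082). Itgax, the integrin CD11c, held 141 and 117 in sgMef2c and 255 and 242 in sgSik3 (adjusted p = 0.00588, largest 0.104), and Angpt1, a secreted ligand of the receptor TIE2, held 204 and 159 in sgMef2c and 411 and 409.7 in sgSik3 (adjusted p = 0.00539, largest 0.101). The sgMef2c libraries were the low ones in each of the 3, with no overlap with sgSik3. Gata2, a transcription factor of stem cells and mast cells, held 1133 and 1138 in sgMef2c and 1445 and 1446 in sgSik3 (adjusted p = 0.00395, largest 0.0871). Dusp5, an ERK phosphatase, held 194 and 199 in sgMef2c and 309 and 322 in sgSik3 (adjusted p = 0.00296, largest 0.0663).

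**Figure D2:**
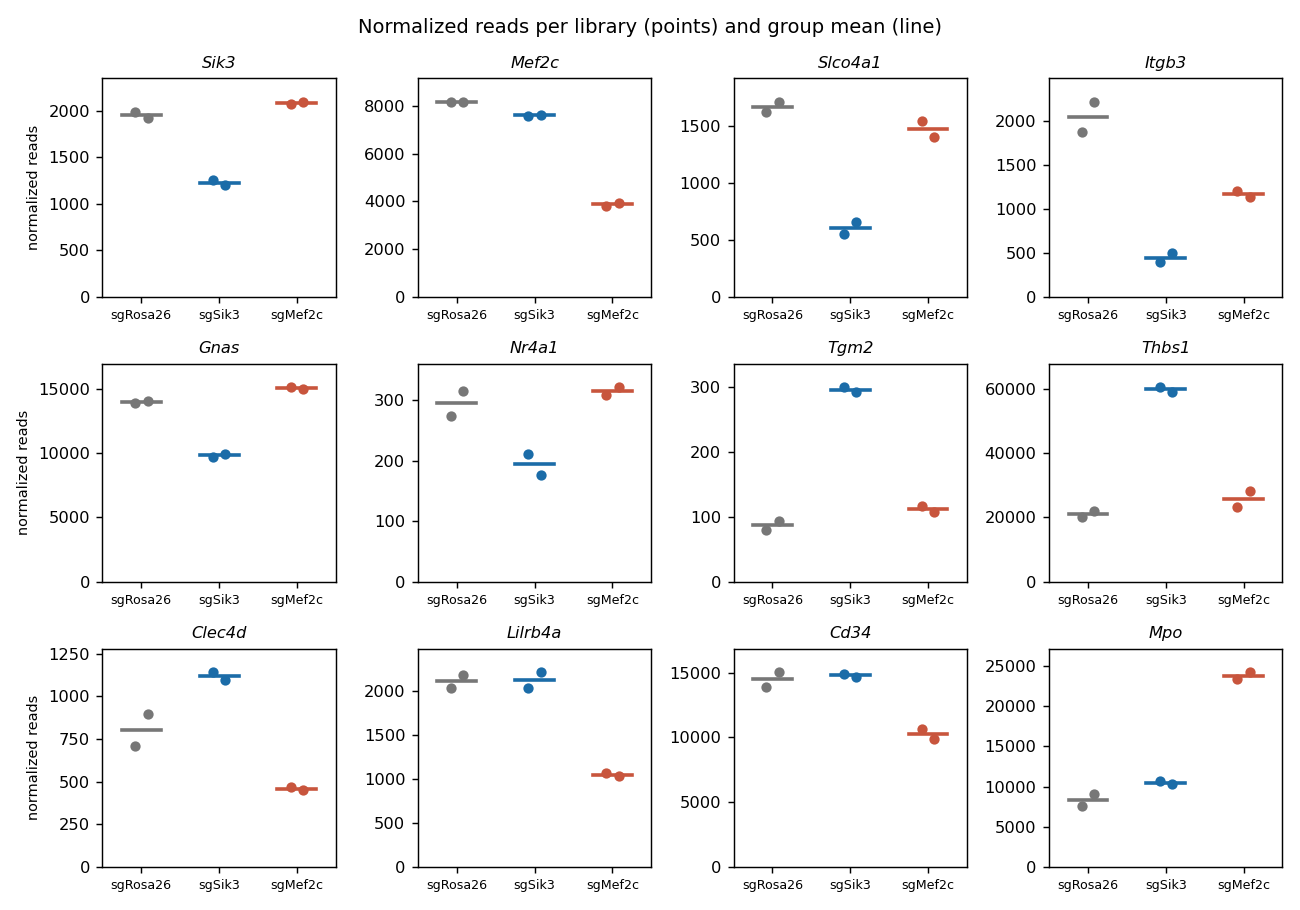
Normalized reads (linear axis from 0) of 12 genes in each of the 6 libraries, 2 for each group; points are libraries and lines are group means. Slco4a1 and Tgm2 move with sgSik3, Lilrb4a and Cd34 move with sgMef2c, and Clec4d moves up with sgSik3 and down with sgMef2c. Gnas moves down with sgSik3 and slightly up with sgMef2c.

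Most other differences were of degree. In 339 genes both knockouts passed against sgRosa26 in the same direction and sgSik3 moved further, 147 up and 192 down, and in 106 genes sgMef2c moved further, 46 up and 60 down. Thbs1 (chr2:118111876-118127133), the secreted matrix protein thrombospondin 1, held 60627 and 59090.1 normalized reads in sgSik3, 23139.5 and 28248 in sgMef2c and 20075 and 22150.2 in sgRosa26. The sgSik3 libraries were the high ones, and sgMef2c sat just above sgRosa26, by 0.28 on the log2 scale (adjusted p = 0.0218). The direct difference was -1.22 (SE 0.08, adjusted p = 6.78e-05). Lyz2, the lysozyme of myeloid cells, held 104843 and 101071 in sgSik3, 59192 and 67540.0 in sgMef2c and 48143 and 45343 in sgRosa26 (direct difference -0.70, SE 0.06, adjusted p = 0.000286), with Lyz1 as a near-identical copy. Trpm2, a calcium channel that oxidative stress opens, held 1277 and 1385 in sgSik3, 797 and 750.1 in sgMef2c and 559 and 625 in sgRosa26 (direct difference -0.78, adjusted p = 0.000286). For these 3 genes the sgMef2c libraries lay between the other groups. Cd300ld, an activating receptor of neutrophils, held 766 and 771 in sgSik3, 419.5 and 460.2 in sgMef2c and 364 and 366 in sgRosa26 (direct difference -0.81, adjusted p = 0.000286). Grina, a membrane protein of the family that restrains cell death, held 3132 and 3158 in sgSik3, 2070.3 and 2223 in sgMef2c and 1630.5 and 1753 in sgRosa26 (direct difference -0.55, adjusted p = 0.000324).

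Among genes that fell with both and further with sgSik3, Itgb3 (chr11:104608000-104670476), the beta chain of the fibrinogen and vitronectin receptors, held 388 and 497 in sgSik3, 1201 and 1136 in sgMef2c and 1877 and 2216 in sgRosa26. The 3 groups did not overlap, and the direct difference was 1.41 (SE 0.11, adjusted p = 0.000229). Lrrc20, a leucine-rich repeat gene, held 268 and 306 in sgSik3, 661 and 632 in sgMef2c and 743 and 774 in sgRosa26 (direct difference 1.18, adjusted p = 7e-05). Dot1l, the histone H3 lysine 79 methyltransferase on which MLL-fusion leukemias depend, held 2168 and 2258 in sgSik3, 3201 and 3046 in sgMef2c and 3545 and 3504 in sgRosa26 (direct difference 0.50, SE 0.04, adjusted p = 0.000279). In Lrrc20 and Dot1l the sgMef2c libraries lay closer to sgRosa26 than to sgSik3. Hpgd, which breaks down prostaglandins, held 1076 and 1163 in sgSik3 and 3688 and 3189 in sgMef2c, but the sgRosa26 libraries themselves stood at 6605 and 11418 (direct adjusted p = 0.00337, largest 0.0998). Cd28, the costimulatory receptor, fell to 437 and 575 in sgSik3 and 1199 and 849 in sgMef2c from 4393 and 4701 in sgRosa26 (direct adjusted p = 0.00547, largest 0.12).

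Genes that moved further with loss of MEF2C included a primary granule enzyme that rose and secreted proteins that fell. Mpo (chr11:87793581-87804413), myeloperoxidase, held 23355 and 24256 normalized reads in sgMef2c, 10665 and 10337 in sgSik3 and 7516 and 9049.7 in sgRosa26. Either sgMef2c library held more than 2-fold the reads of any other library, and the direct difference was 1.18 (SE 0.07, 95% interval 1.02 to 1.34, adjusted p = 3.89e-05). Spp1, the secreted phosphoprotein osteopontin, held 6949.9 and 6908 in sgMef2c, 10942 and 11208 in sgSik3 and 13478 and 13913 in sgRosa26 (direct difference -0.68, SE 0.04, adjusted p = 2.57e-05). Slpi, a secreted inhibitor of neutrophil proteases, held 45795 and 37728 in sgMef2c, 80526 and 80438 in sgSik3 and 112752 and 104521 in sgRosa26 (direct difference -0.95, SE 0.08, adjusted p = 0.000235). Nt5e, the ectonucleotidase CD73, held 3242 and 3091 in sgMef2c, 4408 and 4297 in sgSik3 and 4963 and 5252 in sgRosa26 (adjusted p = 0.000534). In Spp1, Slpi and Nt5e the sgSik3 libraries lay between the other groups. Prss57, a further granule serine protease, held 835 and 1169 in sgMef2c against 471 and 440.0 in sgSik3 and 178 and 199 in sgRosa26 (adjusted p = 0.00231, largest 0.0833). Nlrp3, the sensor of the inflammasome, held 455 and 387 in sgMef2c, 715 and 678 in sgSik3 and 1061 and 916 in sgRosa26 (adjusted p = 0.00318, largest 0.088).

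In 29 genes the knockouts moved in opposite directions, each past its test against sgRosa26 and past the direct test. In 25 of them sgSik3 rose and sgMef2c fell, and in 4 (Gnas, St3gal2, Cyfip2 and Fbxw11) the reverse held. DESeq2 called 10 genes of this kind, and the number was 12 without sgRosa26 2, 7 and 5 without sgSik3 e1 and e3, and 21 to 38 without 1 of the other libraries. 11 of the 29 were among the 44 genes that kept the direct call. Clec4d (chr6:123262111-123275265), an activating C-type lectin receptor of neutrophils and monocytes, held 1143 and 1099 normalized reads in sgSik3, 467 and 449 in sgMef2c and 710.2 and 898 in sgRosa26. Its direct difference was -1.29 (SE 0.10, adjusted p = 0.000155). Its partner Clec4e, the receptor Mincle, held 2115 and 2097 in sgSik3, 1305 and 1285 in sgMef2c and 1413 and 1688 in sgRosa26 (direct difference -0.70, adjusted p = 0.000833). Dhx40, a putative RNA helicase, held 5515 and 5669.8 in sgSik3, 2672 and 2449 in sgMef2c and 3079 and 3264 in sgRosa26 (direct difference -1.13, SE 0.05, adjusted p = 6.35e-06).

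Among the same 29 genes, Csf1, the ligand of the M-CSF receptor, held 723 and 761 in sgSik3, 385 and 386 in sgMef2c and 592 and 681 in sgRosa26 (direct difference -0.94, SE 0.08, adjusted p = 0.000286). The MEF2C knockouts were the low ones, and the rise with sgSik3 was small (0.22, adjusted p = 0.0381). Ccr1, a chemokine receptor, held 1400.2 and 1294 in sgSik3, 778 and 888 in sgMef2c and 959 and 1037 in sgRosa26 (direct difference -0.70, adjusted p = 0.00089). Rnase4, a secreted ribonuclease whose exons overlap those of Ang on the same strand, held 342 and 339 in sgSik3, 193 and 190.2 in sgMef2c and 265 and 256 in sgRosa26 (direct difference -0.83, adjusted p = 0.00107). In each of these genes the sgRosa26 libraries lay between the knockouts. Dusp6, a phosphatase that is transcribed on ERK activity and switches ERK off, held 6488 and 6347 in sgSik3, 4614 and 4966 in sgMef2c and 5303 and 5304 in sgRosa26 (direct difference -0.42, SE 0.04, adjusted p = 0.000756). Gnas (chr2:174284320-174346744), the stimulatory G protein alpha subunit that activates adenylyl cyclase, was lower in sgSik3 at 9679 and 9944, against 15130.3 and 14939 in sgMef2c and 13915 and 14022 in sgRosa26. The direct difference of Gnas was 0.62 (SE 0.04, adjusted p = 2.83e-05), made up of a change of -0.51 with sgSik3 and a rise of 0.11 with sgMef2c (adjusted p = 0.0396), both against sgRosa26. St3gal2, a sialyltransferase, held 236 and 218 in sgSik3, 433 and 485 in sgMef2c and 286 and 267 in sgRosa26 (direct difference 1.01, SE 0.10, adjusted p = 0.000539). In St3gal2 the sgMef2c libraries were the high ones. Cxcr2, the neutrophil chemokine receptor, held 237 and 207 in sgSik3, 118 and 93.5 in sgMef2c and 141 and 160.3 in sgRosa26 (adjusted p = 0.00329, largest 0.0871), and Bcl2l11, which encodes the death promoter BIM, held 1269 and 1338 in sgSik3, 953 and 973 in sgMef2c and 1085 and 1121 in sgRosa26 (adjusted p = 0.00149, largest 0.052).

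**Figure D3:**
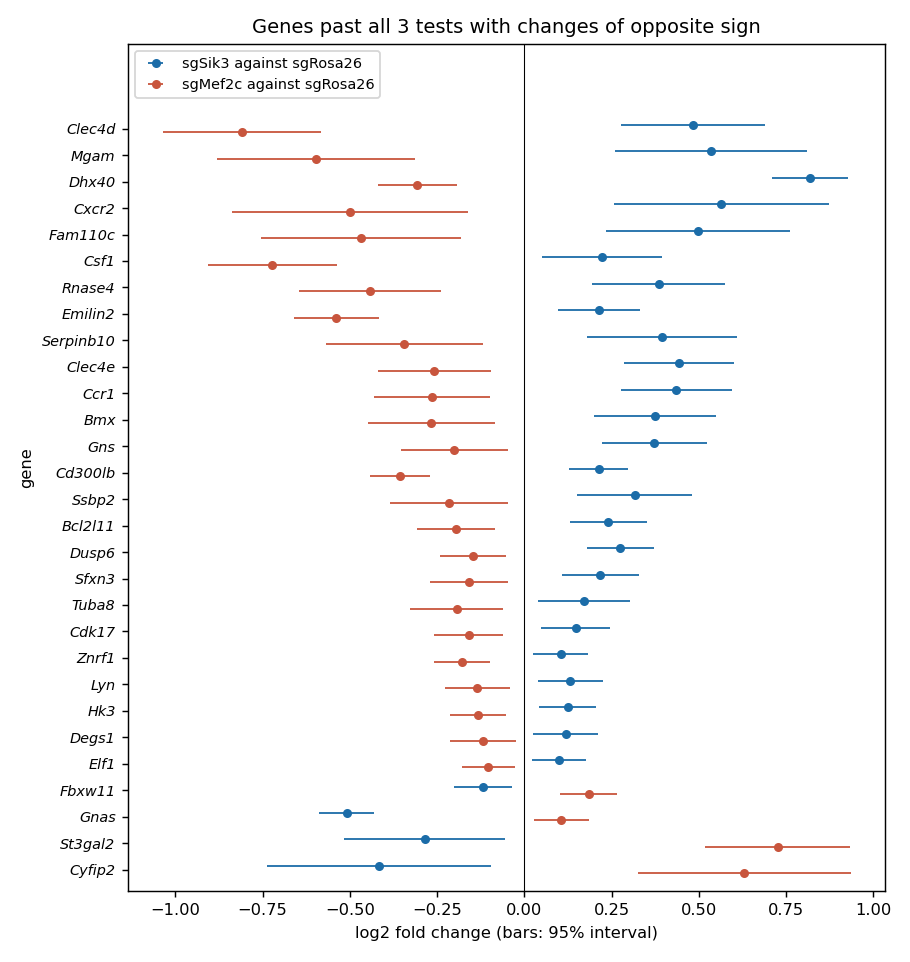
Log2 fold change against sgRosa26 with sgSik3 and with sgMef2c for the 29 genes past all 3 tests with opposite signs; points are fitted values, bars are 95% intervals, and the sgRosa26 libraries are shared. 25 genes are up with sgSik3 and down with sgMef2c, and the 4 at the bottom are the reverse.

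Several genes with some of the largest changes under both knockouts did not pass the direct test. C3, the central complement protein, held 17861 and 16738 normalized reads in sgSik3, 14887 and 20637 in sgMef2c and 3352 and 4442 in sgRosa26, and its direct difference was 0.04 (95% interval -0.29 to 0.36). S100a8, a calcium-binding protein of neutrophils, held 52977 and 48979.6 in sgSik3, 40725 and 72391 in sgMef2c and 9863 and 10103 in sgRosa26 (direct difference 0.15, -0.28 to 0.58). The 2 sgMef2c libraries lay on either side of sgSik3 for C3 and S100a8, so the sign of either difference depended on which was left out. Without sgMef2c 1 the direct log2 difference was 0.25 for C3 and 0.50 for S100a8. Without sgMef2c 2 it was -0.22 for C3 and -0.32 for S100a8. For C3 it was also just negative without sgSik3 e3, at -0.0085. Among genes that fell, Cx3cr1, the fractalkine receptor of monocytes, held 139.9 and 138 in sgSik3, 167 and 139 in sgMef2c and 639.9 and 617 in sgRosa26 (direct difference 0.14, -0.13 to 0.41). Abcb1b, a drug efflux transporter, held 169 and 195 in sgSik3, 214 and 173 in sgMef2c and 649 and 729.9 in sgRosa26 (0.10, -0.20 to 0.41), and Ccr2, the monocyte chemokine receptor, held 1166 and 1226 in sgSik3, 1234 and 865 in sgMef2c and 3157 and 4225 in sgRosa26 (-0.18, -0.56 to 0.20). The intervals of these 5 genes lay within 1.5-fold either way.

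Genes of MYC-driven growth and ribosome assembly fell with both knockouts, and most of them further with sgSik3. All 32 genes of that list were lower than sgRosa26 with sgSik3 (median log2 change -0.57, against 22.6% of all genes lowered) and with sgMef2c (median -0.36, against 17.4%). In the direct test 20 of the 32 passed, each of them higher in sgMef2c, beside 4.18% of all genes. The median difference of the list was 0.22, beside 0.01 over all genes tested. Myc itself held 3057 and 3207 normalized reads in sgSik3, 4171 and 3890.4 in sgMef2c and 5199 and 5151 in sgRosa26 (direct difference 0.37, SE 0.04, adjusted p = 0.00218, largest 0.0736). Npm1, the nucleolar chaperone nucleophosmin, held 15569 and 15548 in sgSik3, 19469 and 18018 in sgMef2c and 25152 and 25234 in sgRosa26 (direct difference 0.27, SE 0.04, adjusted p = 0.00589, largest 0.11). Ncl, nucleolin, held 23597 and 23676 in sgSik3, 29810.4 and 28116 in sgMef2c and 39115 and 37121 in sgRosa26 (0.29, adjusted p = 0.00414, largest 0.0976), and Hspd1, the mitochondrial chaperone HSP60, held 7079 and 7378 in sgSik3, 9633 and 8579 in sgMef2c and 12892 and 12656 in sgRosa26 (0.33, adjusted p = 0.00639, largest 0.125). In these 4 genes the sgMef2c libraries lay between the other groups with no overlap. The direct count of the list was 0 without sgSik3 e1, 1 without e3, 8 without sgMef2c 1 and 16 with DESeq2. Cytosolic ribosomal protein genes behaved differently: 2 of 32 were higher in sgMef2c (Rps2 and Rplp1), and against sgRosa26 13 fell with sgSik3, while 1 rose and 1 fell with sgMef2c. Rps2 passed with a largest adjusted p of 0.102 and Rplp1 with 0.294.

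**Figure D4:**
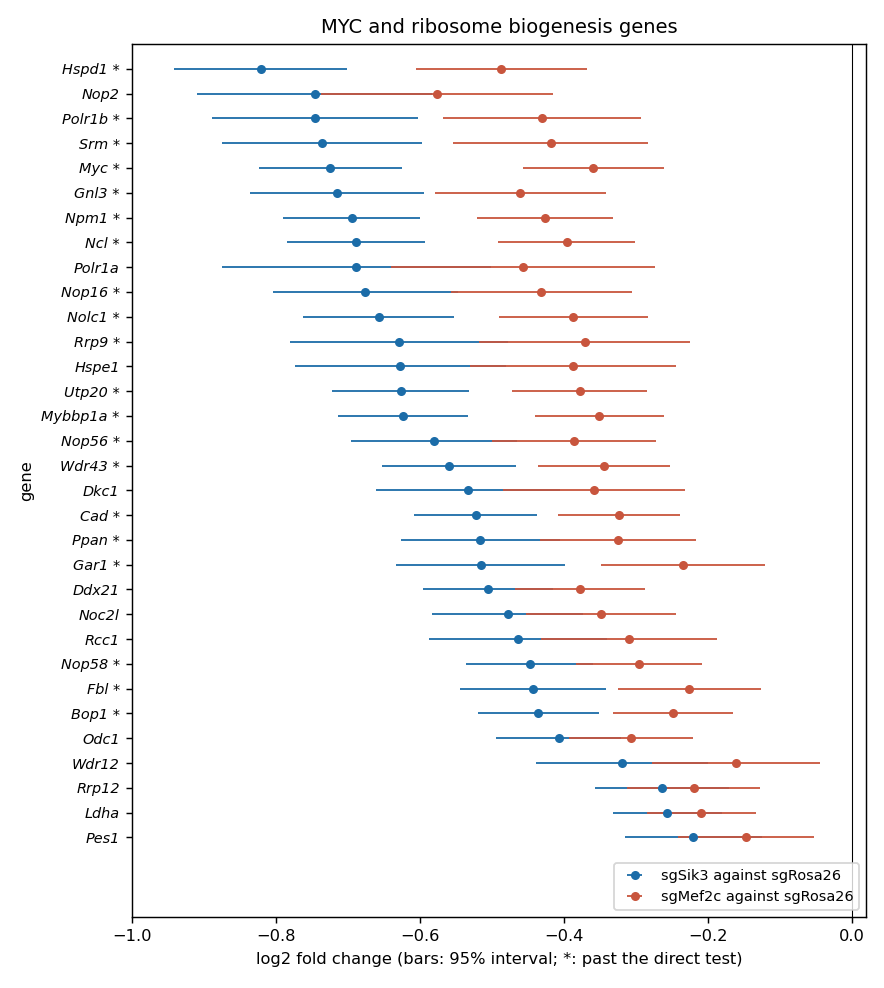
Log2 fold change against sgRosa26 of the 32 genes of the MYC and ribosome biogenesis list with sgSik3 and with sgMef2c; points are fitted values, bars are 95% intervals, and an asterisk marks the 20 genes past the direct test. All 64 points lie below 0, and the sgSik3 point is the lower of the pair in every gene.

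Neutrophil granule genes rose with both knockouts but in a different mix. Against sgRosa26, 27 of 29 secondary and tertiary granule genes rose with sgSik3 and 26 with sgMef2c. Of 14 genes listed for primary granules 9 and 8 rose. Among all genes 23.8% rose with sgSik3 and 19.5% with sgMef2c. In the direct test 4.18% of all genes were higher in sgMef2c and 5.37% lower. Of the 14 tested genes listed for primary granules 5 were higher in sgMef2c (Mpo, Prss57, Prtn3, Elane and Igfbp4). The 3 that were lower were Lyz2, Ms4a3 and Ctsc. Largest adjusted p were 0.115 for Elane, 0.0851 for Igfbp4, 0.0727 for Ms4a3 and 0.233 for Ctsc. The counts became 2 higher and 1 lower without either sgSik3 library, 5 and 5 without sgMef2c 1, and 5 and 2 without sgMef2c 2. Of the 29 secondary and tertiary granule genes 7 were higher, among them Camp, the antimicrobial peptide cathelicidin. Another 7 were lower, among them Mmp9, the gelatinase of tertiary granules. The median direct log2 difference of these 29 genes was 0.37, beside 0.01 over all genes tested. It was 0.76 without sgMef2c 1 and 0.015 without sgMef2c 2, and 0.41 and 0.30 without sgSik3 e1 and e3. Camp held 450.2 and 1035 normalized reads in sgMef2c and 279 and 265 in sgSik3 (adjusted p = 0.0287, largest 0.238), and Mmp9 held 184 and 438 in sgMef2c and 737 and 687 in sgSik3 (adjusted p = 0.0273, largest 0.209). The 2 sgMef2c guides differed by more than 2-fold in either gene, without overlap with sgSik3. Both counts of the secondary and tertiary list were 0 without either sgSik3 library, while without sgMef2c 1 they were 17 higher and 5 lower.

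Of 20 tested regulators and receptors of granulocytes 10 were lower in sgMef2c than in sgSik3 and 1 was higher, with a median of -0.15. Over all genes tested, 5.37% were lower in sgMef2c and 4.18% higher. Against sgRosa26, 18 of the 20 rose with sgSik3 (23.8% of all genes), and with sgMef2c 12 rose and 4 fell (19.5% and 17.4%). Il1b, Clec4d and Clec4e, given above, belong to this list. Fpr2, a formyl peptide receptor, held 22.99 and 37.04 normalized reads in sgSik3, 2.63 and 8.4 in sgMef2c and 1.93 and 0 in sgRosa26 (adjusted p = 0.0216, largest 0.104), and Il1rn, the interleukin-1 receptor antagonist, held 924 and 922 normalized reads in sgSik3 against 276 and 459 in sgMef2c and 210.1 and 254 in sgRosa26 (adjusted p = 0.00274, largest 0.08). The count of lower genes was 3 without sgSik3 e1, 3 without e3 and 7 with DESeq2. Of 26 monocyte and macrophage genes 8 were lower in sgMef2c (median -0.20) and 1 was higher. They included Csf1r, Lyz2 and Adgre1, the macrophage marker F4/80, at 3028 and 2947 in sgMef2c and 4362 and 4168 in sgSik3 (adjusted p = 0.00101, largest 0.0526). The count of 8 fell to 1 without sgSik3 e1 and 2 without e3. Against sgRosa26 9 of the 26 monocyte and macrophage genes rose and 11 fell with sgSik3, beside 23.8% and 22.6% of all genes. With sgMef2c 5 rose and 15 fell, beside 19.5% and 17.4%.

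Other lists leaned the same way in the direct test, against 5.37% of all genes lower in sgMef2c and 4.18% higher. Of 23 growth factor receptor and JAK-STAT feedback genes 8 passed, each lower in sgMef2c, and 1 and 2 without sgSik3 e1 and e3. Csf1, above, was the one that held in every fit. Of 24 ERK feedback and immediate early genes 7 passed, each lower in sgMef2c, and 1 without either sgSik3 library, 3 without sgMef2c 1 and 4 with DESeq2. Dusp6 was the one that held in every fit. Of 22 extracellular matrix genes 8 were lower and 2 higher, and Thbs1, Spp1 and Emilin2 were the 3 that held. Emilin2, an elastin-associated glycoprotein, held 839 and 779.6 normalized reads in sgMef2c, 1336 and 1396 in sgSik3 and 1196 and 1159.7 in sgRosa26 (direct difference -0.75, SE 0.05, adjusted p = 9.78e-05). Of 18 genes listed for antigen presentation 5 were lower, and the 1 that was higher was the T cell costimulator gene Cd28. B2m, the light chain of MHC class I, held 9323 and 8549.9 in sgMef2c and 11053 and 10712 in sgSik3 (direct difference -0.28, adjusted p = 0.00727, largest 0.124), and H2-K1, a class I heavy chain whose reads could be shared with H2-D1, held 4737 and 4226 in sgMef2c and 5842 and 5716 in sgSik3 (-0.37, adjusted p = 0.00414, largest 0.101). Neither count of that list was above 0 without an sgSik3 library. Of 12 genes of leukemia identity 6 were lower, Cd34 among them, and 1 was higher, Mpo. The 6 became 1 without either sgSik3 library and 4 without sgMef2c 1.

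Genes of proliferation and mitochondria leaned the other way in the direct test, in which 4.18% of all genes were higher in sgMef2c and 5.37% lower. Of 34 DNA replication and mitosis genes 6 passed, each higher in sgMef2c, with log2 differences of 0.14 to 0.20. Plk1, a mitotic kinase, held 2327 and 2257 in sgMef2c, 2064 and 1944 in sgSik3 and 2011 and 2056 in sgRosa26 (adjusted p = 0.026, largest 0.234). Of 29 respiratory chain and ATP synthase genes 5 passed, each higher in sgMef2c, such as Atp5b, the beta subunit of ATP synthase, at 30828 and 29557 in sgMef2c against 27018 and 26904 in sgSik3 and 34119 and 33817 in sgRosa26 (adjusted p = 0.025, largest 0.188). Either count was 0 without an sgSik3 library, and that of the respiratory chain was 0 without sgMef2c 1 too. Against sgRosa26 these lists differed. Of the replication and mitosis genes 7 rose and 5 fell with sgSik3, and 16 rose and 0 fell with sgMef2c. Of the respiratory chain genes 1 rose and 23 fell with sgSik3, and 1 rose and 10 fell with sgMef2c. Among all genes 23.8% rose and 22.6% fell with sgSik3, and 19.5% rose and 17.4% fell with sgMef2c. Of the 20 tested interferon-stimulated genes, 0 passed the direct test with edgeR, with DESeq2 or with limma, at a median of -0.27, and 1 higher and 7 lower genes had an unadjusted p under 0.05 with edgeR. Their direct adjusted p was lowest for Gbp3, an interferon-induced GTPase, at 0.0668, with 501 and 397 in sgMef2c and 574 and 564 in sgSik3. The 5 histone genes found in the tables, whose transcripts mostly lack a poly(A) tail, summed to 226 and 191 normalized reads in sgSik3, 161 and 191 in sgMef2c and 207 and 203 in sgRosa26, and 0 of the 3 tested passed with edgeR (1 at an unadjusted p under 0.05, 0 with DESeq2 or limma).

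**Figure D5:**
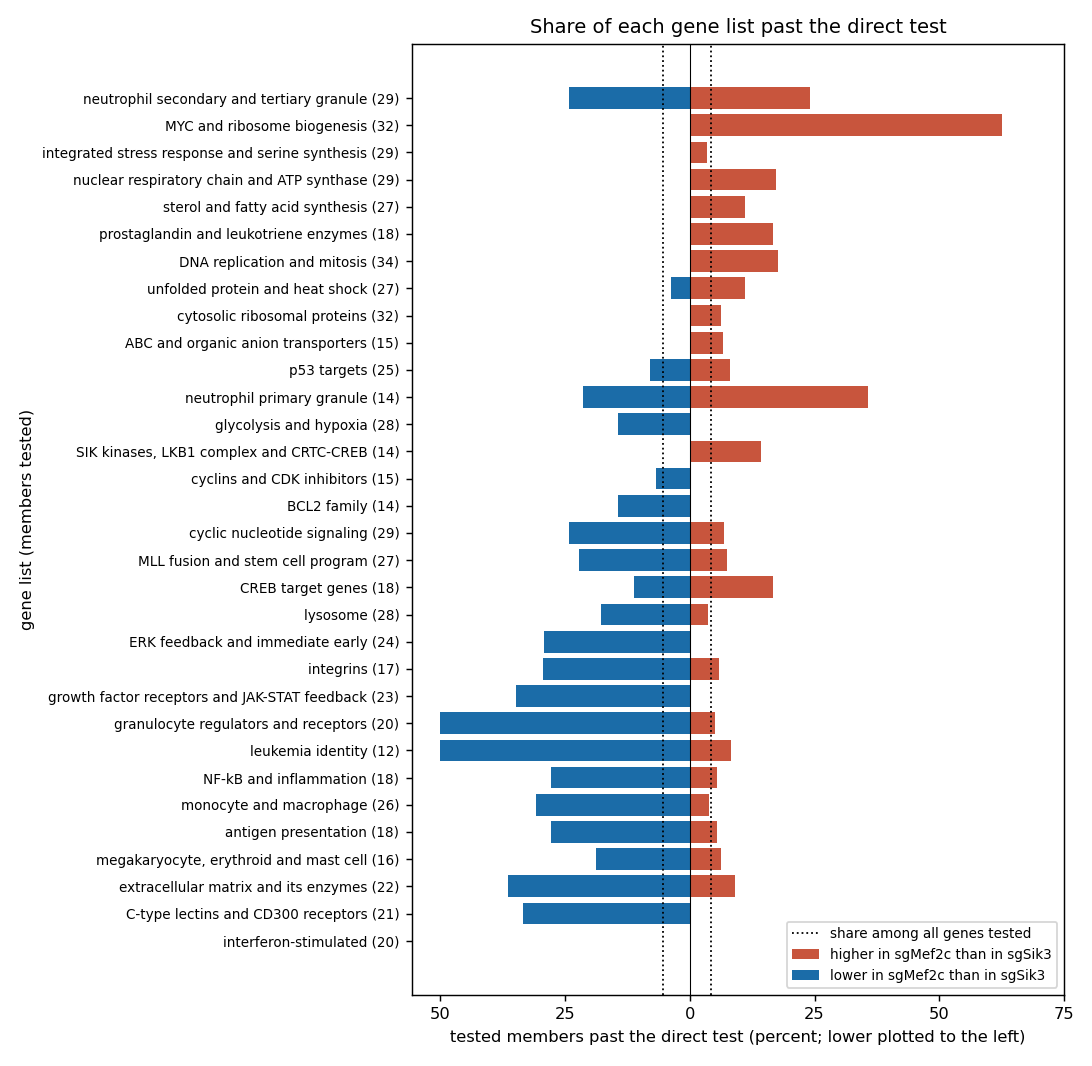
Share of the tested members past the direct test in each gene list with at least 10 tested, higher in sgMef2c to the right and lower in sgMef2c to the left (linear axis, percent); the number tested is in parentheses and lists are ordered by their median direct difference. Dotted lines give the shares among all genes tested, 4.18% higher and 5.37% lower; the MYC list stands furthest to the right and the granulocyte regulators and leukemia identity lists furthest to the left among those plotted. The markers of other cell types, 2 of 4 lower, are too few to be plotted.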

How the data were processed

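RNA of 6 mouse RN2 Cas9 libraries was analysed, 2 for each of sgRosa26, sgSik3 and sgMef2c; the series' other 8 libraries were not used here. Per the labels, RNA was taken with TRIzol and libraries were made with a TruSeq v2 poly(A) kit, which does not mark strand. The submitters' processing notes name HISAT2, featureCounts and DESeq2 and the build mm10, with no versions. The deposited values are a normalized signal: the authors divided each library's read counts by a size factor. Dividing each column by its smallest nonzero value gave back whole reads for 100% of values (within 0.001 reads) in both tables, and the sgRosa26 columns of the tables held the same reads, so the 6 libraries were normalized together from the recovered counts. The planned count test was kept as the main test on these recovered reads, although the deposited unit is a signal.

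Of 20682 genes, 14425 had reads and the 10952 with a mean of at least 10 normalized reads were tested with edgeR 4.0.16 (TMM, quasi-likelihood, a single model of 3 groups, R 4.3.3), which called 1046 genes in the direct comparison at a Benjamini-Hochberg adjusted p of 0.05 over all genes. Standard errors are the log2 difference divided by the root of F. A gene's class is read from the tests against sgRosa26. The test was also run on simulated counts. These had a single common spread for all genes and libraries, so they do not check the unequal spread of the 3 groups. Alternatives were RLE and upper-quartile factors, DESeq2 1.42.0, limma 3.58.1 with pseudocounts 1 and 5, other filters and thresholds, the 4 knockout libraries alone and leaving out each library. Exact permutation of 2 against 2 libraries cannot reach 0.05. Locations are from GENCODE M21 (GRCm38).

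Genes were named by rule: the SIK and MEF2 families, the 12 largest direct differences each way with a mean of at least 50 reads and no overlap, 5 for each class and direction, up to 4 for each list, and the 5 largest shared changes each way. Fyb, Pde1b, Arhgap31, Snx18, Notch2, Capn2, Btg1, Nabp1, Stk17b, Trpm2, Grina, Nt5e, Ccr1, Rnase4, Fpr2, Dusp1, Hdac9, Cpa3, Elane, Igfbp4, Ms4a3, Ctsc and, in the closing section, Adcy2, Adcy3, Pde8a, Prkar2a and Cd300a were chosen after their values were seen, as was the set of 44. The genes and lists were chosen with earlier results of these data known. Deviations of same-numbered sgRosa26 and sgMef2c libraries had a correlation of 0.051 across genes, so the numbers were not taken as pairs.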

Additional observations from a re-analysis of the deposited data

How the results depend on the processing

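The count of 1046 direct calls was 1025 with RLE factors, 1009 with upper-quartile factors, 1074 and 1088 with limma, 1142 from the 4 knockout libraries alone, 1523 with no filter, 592 with DESeq2 and 273 at a threshold of 0.01. With 1 library left out it ranged from 51 to 1162, the low values being those without an sgSik3 library. The 336 genes of the class that passed with sgSik3 only became 187 with DESeq2, 115 at 0.01 and 20 to 386 with 1 library left out. The 188 genes of the class that passed with sgMef2c only became 69 at 0.01 and 11 to 193 with 1 library left out. The 445 that passed with both in the same direction became 230 with DESeq2, 695 with no filter, 71 at 0.01, and 13 and 15 without sgSik3 e1 and e3. The split of higher and lower direct calls was 458 and 588, 211 and 381 with DESeq2, 389 and 620 with upper-quartile factors, 76 and 197 at 0.01, 256 and 449 without sgMef2c 1, and 9 and 42 or 13 and 41 without an sgSik3 library. Calls against sgRosa26 ranged from 3375 to 5254 for sgSik3 with 1 library left out. For sgMef2c they ranged from 2665 to 3893, and 2487 passed at 0.01.

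No named gene past the direct threshold changed sign. Named genes short of it did, with 1 library left out, and the direct log2 difference then ranged as follows. It ran from -0.071 to 0.24 for Abcb1b, from -0.039 to 0.080 for Arhgap6, from -0.22 to 0.25 for C3, from -0.47 to 0.046 for Ccr2 and from -0.12 to 0.35 for Ces1d. For Cx3cr1 it ran from -0.0078 to 0.26, for Hist1h1c from -0.38 to 0.13, for Lrg1 from -0.30 to 0.40 and for Mef2d from -0.040 to 0.074. For S100a4 it ran from -0.54 to 0.12, for S100a8 from -0.32 to 0.50 and for Zfp831 from -0.25 to 0.32. The causes were not tested. A replicate block on sgRosa26 and sgMef2c gave 3964 genes, against 3414 for the same 4 libraries without it, and the pairing correlation was 0.051. No paired analysis of the direct comparison was possible. Its library numbers name guides (e1 and e3 for sgSik3, 1 and 2 for sgMef2c), and the labels give no pairs.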

Other observations

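Genes of cyclic nucleotide signaling, listed after the values of Pde7b, Prkar2b and Gnas had been seen, differed in both directions. Of 29 tested, 2 were higher in sgMef2c than in sgSik3 (Gnas and Prkar2a, a second regulatory subunit of protein kinase A) and 7 were lower. Over all genes tested, 4.18% were higher and 5.37% lower. The 7 were the phosphodiesterase genes Pde1b, Pde4b, Pde7b and Pde8a, the adenylyl cyclase genes Adcy2 and Adcy3, and Prkar2b. Prkar2a held 1827 and 1731 normalized reads in sgMef2c and 1456 and 1407 in sgSik3 (direct log2 difference 0.31, edgeR adjusted p = 0.00512, largest 0.105 with 1 library left out). Adcy3 held 558 and 545 in sgMef2c and 707 and 707 in sgSik3 (direct log2 difference -0.36, edgeR adjusted p = 0.0263, largest 0.192). Against sgRosa26 17 of the 29 rose and 3 fell with sgSik3, beside 23.8% and 22.6% of all genes. With sgMef2c 12 rose and 2 fell, beside 19.5% and 17.4%. The direct counts were 1 higher and 3 lower without sgSik3 e1, 1 and 4 without e3, 3 and 4 without sgMef2c 1 and 2 and 6 without sgMef2c 2.

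C-type lectin and CD300 receptor genes were also listed after values had been seen. Of 21 tested, 7 passed as lower in sgMef2c than in sgSik3: Clec4d, Clec4e, Clec4n, Clec5a, Cd300a, Cd300lb and Cd300ld, with a median over the list of -0.25. Over all genes tested, 5.37% were lower in sgMef2c and 4.18% higher. Clec4n, the fungal receptor Dectin-2, held 89.95 and 111 normalized reads in sgSik3, 28.96 and 40.97 in sgMef2c and 16.4 and 37.8 in sgRosa26 (direct log2 difference -1.54, SE 0.29, edgeR adjusted p = 0.0131, largest 0.167). Cd300lb held 2678 and 2631 in sgSik3, 1773 and 1807 in sgMef2c and 2300.2 and 2281 in sgRosa26 (direct log2 difference -0.57, edgeR adjusted p = 6.78e-05). The sgSik3 libraries were the high ones in both. Against sgRosa26 14 of the 21 rose and 2 fell with sgSik3, beside 23.8% and 22.6% of all genes. With sgMef2c 7 rose and 5 fell, beside 19.5% and 17.4%. The count of lower genes was 5 without either sgSik3 library, 6 without sgMef2c 1, 8 without sgMef2c 2 and 7 with DESeq2. A single gene of the list passed as higher with no filter, from the 4 knockout libraries only, and without either sgRosa26 library.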
